A study of Mus musculus with 24 samples.

Results

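The choroid plexus is the sheet of epithelium and stroma that hangs into the ventricles of the brain and makes the cerebrospinal fluid. Its epithelial cells move sodium, chloride, bicarbonate and water from blood to ventricle, carry vitamins such as folate, and secrete carrier proteins such as transthyretin. One plexus forms at the dorsal midline of the telencephalon and the diencephalon, and another at the roof of the hindbrain, so that a dissected forebrain piece and a dissected hindbrain piece can each hold epithelium of this kind. The 10 genes described here were *Ttr*, *Folr1*, *Kcnj13*, *Clic6*, *Cldn2*, *Aqp1*, *Slc4a5*, *Prr32*, *Htr2c* and *Car12*, out of 54446 genes in the count tables. They are genes of choroid plexus epithelium that were selected on their measured levels in these libraries, chosen by values that moved together and were low in some mutant libraries, those of female DMH and male SP among them. Their joint movement and each genotype contrast that includes the low libraries (female DMH, male SP, both sexes together and the interactions), and the comparison of regions in mutants, are therefore given as a description. Counts of calls from those fits are printed beside the share of all genes called, except for some alternative settings, and nothing is read from them.

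The libraries came from 12 mouse embryos at stage E14.5, each dissected into the secondary prosencephalon (SP) and the diencephalon, midbrain and hindbrain (DMH), which gave 24 libraries. Controls were *Tfap2b*+/+ littermates and mutants were *Tfap2b*-/-, 3 of them in each combination of sex and genotype. The labels name no further allele or treatment, whereas the study's methods in 1 place write the sequenced mutants as *Vgat-Tfap2b*-/- and a supplementary legend writes them as *Tfap2b*+/-, and the labels were followed here. As the methods describe the *Tfap2b*-/- line, its mutant allele carries a PGK-neo cassette inside an exon and is present in all cells of the embryo, and both genotypes came from crosses of *Tfap2b*+/- parents. *Tfap2b* itself, an AP-2 transcription factor, stood at 281 to 435 CPM (library-size scaled counts) in DMH controls and at 50.4 to 56.6 CPM in DMH mutants, and at 2.75 to 4.72 CPM in all SP libraries.

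The read pairs assigned to genes numbered 24.7 to 66.8 M in a library. Without the TMM normalization (a scaling of library sizes) applied to the other CPM values, 3 counts corresponded to 0.0449 to 0.121 CPM. Counts on PCR-amplified reads cover counting error only. The lowest count of any member was 3, for *Prr32* in SP of male mutant 3, and 9 of the 10 members exceeded 3 counts in all 24 libraries. Some libraries stood apart before any comparison was made. Caudal *Hox* genes, which mark caudal hindbrain, summed to 0.0378 CPM in DMH of female control 1, 0.450 CPM in female mutant 1, 0.105 CPM in female mutant 2 and 11.5 CPM in male mutant 2, against 338 to 520 CPM in the other DMH libraries. DMH of female mutant 3 held 629 CPM of 7 skeletal muscle genes and 1871 CPM of 5 cartilage genes, where DMH controls held at most 7.92 and 105 CPM. This embryo was left out of the fitted comparisons, as in the study. Both libraries labelled female control 2 held transcripts of 4 Y-linked genes, at 122 and 133 CPM in sum, and almost no *Xist* (0.0907 and 0.0341 CPM), whereas the other libraries labelled female held at most 0.0351 CPM of the former. The label was kept. SP of male mutant 1 had the highest shares of unmapped (9.98%) and multimapping fragments (7.85%) of the 24 libraries, whose medians were 6.23 and 5.39%, and the lowest share of ambiguous ones (1.10%, median 1.48%). Its chi-square per gene against the other male SP mutants, 149 and 181, was the highest of the 24 replicate pairs.

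Transcription start sites of 7 members were found in the RefSeq promoter table (GRCm38.p6), and the 250 bases before each were searched on both strands for the AP-2 motif GCCNNNGGC and for the OTX motif TAATCC. No matches overlapped. The AP-2 motif was found in 1 of the 7, *Aqp1*, where its first base lies 81 bases before the start site, and it occurs in 13.7% of all 32851 promoters of the table. The OTX motif was in none of the 7 and in 6.25% of all promoters. A match describes the letters only. The windows of *Aqp1* and *Prr32* are shown because these genes departed together from the other members in 1 library described below. Capitals mark the AP-2 motif, both lie on the plus strand, and *Aqp1* is at chr6:55336049-55336298 and *Prr32* at chrX:45090654-45090903.
Aqp1: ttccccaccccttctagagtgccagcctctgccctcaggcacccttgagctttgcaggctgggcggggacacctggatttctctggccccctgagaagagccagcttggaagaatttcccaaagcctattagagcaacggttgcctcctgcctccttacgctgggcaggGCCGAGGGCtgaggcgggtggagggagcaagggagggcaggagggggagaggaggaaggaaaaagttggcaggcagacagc
Prr32: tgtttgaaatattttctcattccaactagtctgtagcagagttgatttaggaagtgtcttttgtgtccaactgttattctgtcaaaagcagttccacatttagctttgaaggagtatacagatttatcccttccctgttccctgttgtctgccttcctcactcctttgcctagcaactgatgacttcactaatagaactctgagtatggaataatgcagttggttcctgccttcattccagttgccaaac

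On GRCm38 (GENCODE vM21) *Aqp1* spans chr6:55336432-55348555 and *Slc4a5* chr6:83219828-83304945, both on the plus strand, and *Prr32*, *Cldn2* and *Htr2c* lie on the X chromosome. All 10 genes were detected in both regions of every control embryo, and *Ttr* far exceeded the rest. Per kilobase of exon, the median of the 6 DMH controls was 353 CPM for *Ttr*, 7.41 for *Clic6*, 5.14 for *Aqp1*, 2.50 for *Kcnj13*, 2.14 for *Folr1*, 2.03 for *Slc4a5*, 1.53 for *Prr32*, 1.52 for *Htr2c*, 1.07 for *Car12* and 0.409 for *Cldn2*. In SP controls *Ttr* stood at 338 CPM per kilobase and *Clic6* at 9.81, *Aqp1* at 3.53 and *Folr1* at 2.29, and *Cldn2* was again lowest, at 0.365. As a share of CPM, *Ttr* made up 70.4 to 84.7% of the summed members in SP and 70.9 to 84.2% in DMH. Markers of retinal pigment epithelium, which shares some transporters with choroid plexus, summed to 46.8 to 82.6 CPM over 10 genes in SP and to 9.12 to 15.2 CPM in DMH. Only *Rlbp1* and *Dct* of these reached a mean of 1 CPM in SP (medians of 49.6 and 14.1 CPM). In DMH only *Rlbp1* and *Best1* did (medians of 11.5 and 1.48 CPM), so the sums are not read as pigment epithelium. Markers of liver, another source of *Ttr*, did not exceed 1.34 CPM over 7 genes in any library. In bulk tissue, fewer choroid plexus cells in a piece and less RNA per cell cannot be told apart, and this holds for every value below.

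To describe the genes as a group, each was set against its own median in the 6 controls of the same region on the log2 scale, and the 10 differences were averaged for each library (counts with a prior of 2; a mean of 0 is 100% of the control median). Controls lay at 64.9 to 119% in SP and at 80.8 to 133% in DMH. The lowest library was SP of male mutant 3, at 11.6%, where every member was the lowest of the 12 SP libraries. SP of male mutant 1 followed at 40.3%, with 9 of 10 members below all 6 SP controls, and is the library with 9.98% of its fragments unmapped. The part of library quality in its values was not tested. In DMH the lowest was female mutant 1, at 20.1%, again with every member lowest of 12, followed by female mutant 2 at 44.3% with 8 members below all 6 DMH controls, and female mutant 3 at 63.0% with 7. The remaining mutant libraries stood at 72.9 to 87.2% in SP and 97.6 to 126% in DMH, inside the range of their controls. SP of female mutant 1 had 2 members below all 6 SP controls, *Cldn2* and *Prr32*, where 8.86% of all genes with a mean of at least 1 CPM did so, and SP of male mutant 2 had 1, *Cldn2*, where 7.51% did.

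Among all genes with a mean of at least 1 CPM, the share below all 6 controls was 17.3% in SP of male mutant 3, 40.0% in SP of male mutant 1, and 18.1, 30.3 and 11.7% in DMH of female mutants 1, 2 and 3. Of the 10 members, 10, 9, 10, 8 and 7 lay below every control in these libraries, in the same order.

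**Figure D1:**
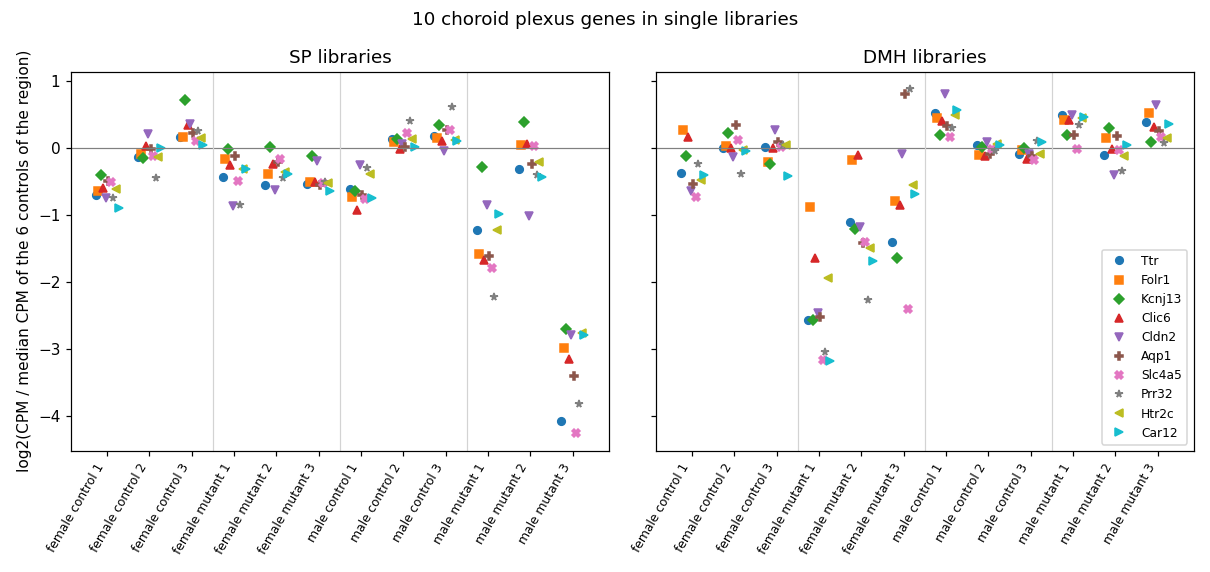
Each point is 1 gene in 1 library, on the vertical axis as log2 of its CPM over the median CPM of the 6 controls of the same region (no prior count), with SP libraries left and DMH libraries right in order of sex, genotype and embryo number. The members lie furthest below 0 on average in SP of male mutants 1 and 3 and in DMH of female mutants 1 and 2. All 10 are also below 0 in SP of female control 1, male control 1 and female mutants 1 and 3, while *Aqp1* and *Prr32* lie above 0 in DMH of female mutant 3.

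In the 4 mutants with a piece under 50% of the control median, the other piece stood at 77.3% or more. Male mutant 3 stood at 11.6% in SP and at 122% in DMH, and male mutant 1 at 40.3% and 126%. Female mutant 1 stood at 77.3% in SP and at 20.1% in DMH, and female mutant 2 at 79.7% and 44.3%. Female mutant 3 was below the control median in both pieces, at 72.9% in SP and 63.0% in DMH. Over the 12 embryos the SP and DMH means had a Pearson r of -0.23 and a Spearman rho of -0.25, points that share an embryo but not a piece, given as a description without a test.

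**Figure D2:**
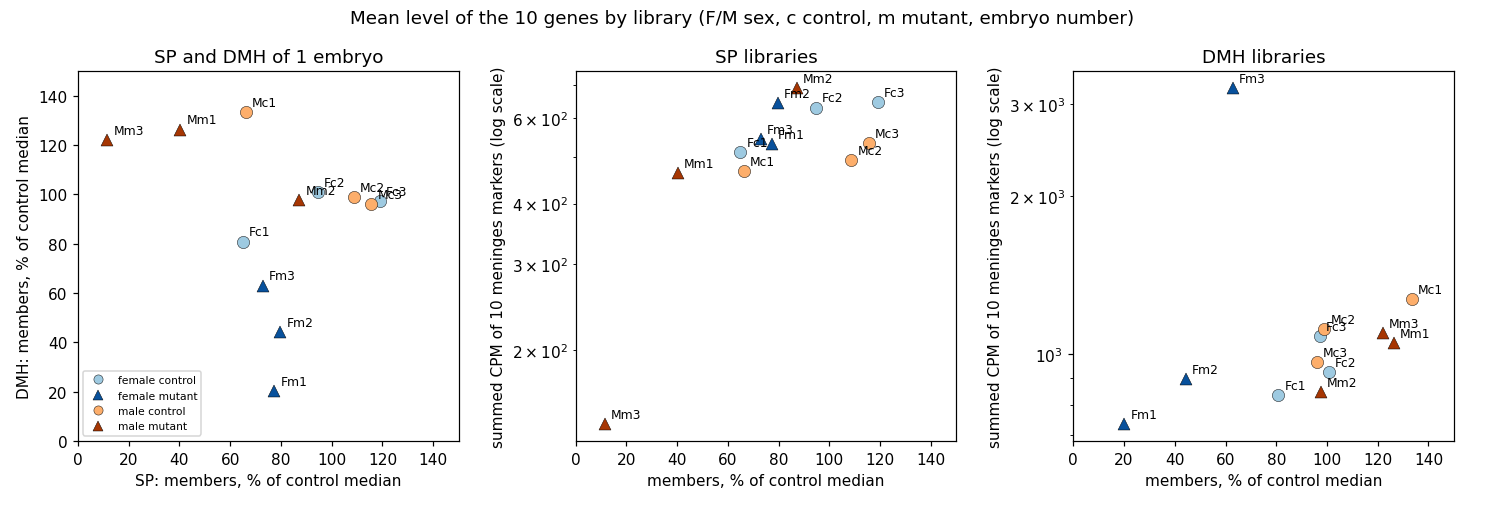
The left panel sets the mean level of the 10 genes in SP (horizontal, % of the control median) against that in DMH (vertical, same unit) for each of 12 embryos, and the other panels set the mean level in SP and in DMH against the summed CPM of 10 meninges markers (log axis). No embryo is under 50% in both regions, and SP of male mutant 3 is lowest on both axes of the middle panel, at 11.6% and 141 CPM.

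Markers of tissues that lie next to the choroid plexus were read in the same libraries. The 10 meninges genes summed to 467 to 647 CPM in SP controls, and SP of male mutant 3 held 141 CPM, with all 10 meninges genes below every control. Its 8 endothelial genes also lay below every control, at 173 CPM in sum against 244 to 284 CPM. The endothelial sum was also under that of every control in SP of male mutant 1, at 238 CPM, and in DMH of female mutant 1, at 273 CPM against 289 to 323 CPM in DMH controls. The 12 genes of roof plate and cortical hem, the midline tissue next to which the plexus forms, summed to 62.8 CPM in SP of male mutant 3, the lowest of the 12 SP libraries, against 94.997 to 131 CPM in SP controls, and to 102 CPM in SP of male mutant 1. In DMH these genes summed to 110, 148 and 85.8 CPM in female mutants 1, 2 and 3, against 91.5 to 130 CPM in controls. SP of male mutant 1 had 3 of 10 meninges genes below every control and 3 above, and its 5 telencephalon genes summed to 2386 CPM, against 1356 to 1741 CPM in controls. In DMH the lowest meninges sum was that of female mutant 1, at 735 CPM, against 836 to 1273 CPM in controls, while female mutant 3 held 3223 CPM. How far the amount of adjoining tissue enters the members' levels was not tested.

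Over single libraries the 10 genes moved together more closely in SP than in DMH, as a description. The Pearson r between 2 members over the 12 SP libraries, on log2 CPM, had a median of 0.95 over 45 pairs (0.81 to 0.99), and over the 12 DMH libraries a median of 0.86 (0.42 to 0.98). The points share libraries, and with them depth and tissue composition. Without SP of male mutants 1 and 3 the median was 0.84, and without DMH of female mutants 1 and 2 it was 0.64. With the means of the 4 conditions subtracted it was 0.95 in SP and 0.61 in DMH, and without female mutant 3 it was 0.93 in DMH, an alternative chosen after seeing the data.

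In SP, *Htr2c* followed the mean of the other 9 members most closely (r = 0.996), and the weakest were *Cldn2* (r = 0.88) and *Kcnj13* (r = 0.93). *Cldn2* and *Kcnj13* were also the pair with the lowest r, 0.81. The range of change differed between members, with a slope on the mean of the others of 1.33 for *Slc4a5* and 1.27 for *Ttr*, against 0.70 for *Cldn2*, 0.81 for *Kcnj13* and 0.82 for *Car12*. In DMH the weakest were *Folr1* (r = 0.78), *Prr32* (r = 0.79) and *Aqp1* (r = 0.82), and *Folr1* and *Clic6* changed least for a given change of the others, with slopes of 0.42 and 0.62. Without female mutant 3, *Prr32* and *Aqp1* reached an r of 0.96 and 0.98, and *Folr1* one of 0.85 with a slope of 0.39. Without female mutants 1 and 2 instead, the r was -0.34 for *Prr32* and -0.20 for *Aqp1*, and the lowest pair, *Kcnj13* and *Prr32*, had an r of -0.74.

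The genes that followed the members most closely outside the list, over 12 SP libraries, were *Sostdc1*, *Kcne2*, *Tinagl1*, *Wfikkn2* and *Cdh3* (r = 0.98 to 0.99 with the members' mean). Over 12 DMH libraries they were *Kcne2*, a potassium channel subunit, *Tmem72*, *Iqub*, *Myh14* and *Drc7* (r = 0.97 to 0.98). An r over 0.9 was reached by 118 of 14048 genes (0.840%) in SP and by 27 of 14525 (0.186%) in DMH, and the median r of all genes was 0.05 and -0.02. *Kcne2* itself ranged from 0.906 CPM in SP of male mutant 3 to 17.8 CPM (median 13.7), and it was lowest in DMH, at 1.88 CPM, in female mutant 1 (median 14.8).

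Transthyretin (*Ttr*) carries thyroid hormone and retinol-binding protein in the cerebrospinal fluid. In SP it stood at 244 to 453 CPM in the 6 controls (median 400) and at 294, 272 and 274 CPM in the female mutants, here and below in the order of embryo number. In the male SP mutants it was 171, 323 and 23.6 CPM. The last of these was below every other SP library, and *Ttr* was lower in it than the mean of the other members, with a departure of -1.07 on the log2 scale. In DMH the controls held 321 to 601 CPM and the female mutants 70.1, 194 and 158 CPM, with no overlap, and the male mutants 587, 387 and 544 CPM lay within the range of controls. Here and below, such non-overlap is a description, because the genes were chosen by low values in these libraries. The share of all genes with 3 mutants below 6 controls was not counted. The means were 386 ± 56.5 CPM (SD, n = 3) in female DMH controls and 132 ± 87.7 CPM (SD, n = 2) in the mutants fitted, and 384 ± 106 CPM and 172 ± 150 CPM (SD, n = 3 each) in male SP controls and mutants.

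The folate receptor *Folr1* and the chloride channel protein *Clic6* were less low than the others in DMH of female mutants 1 and 2. *Folr1* held 4.26 to 6.68 CPM in DMH controls and 2.66, 4.32 and 2.82 CPM in female DMH mutants, of which the second overlapped the controls. *Clic6* held 25.9 to 38.2 CPM in DMH controls and 9.25, 27.0 and 16.1 CPM in female DMH mutants. Relative to the mean of the other members, *Folr1* was higher by 1.61 in DMH of female mutant 1 and by 1.10 in female mutant 2 on the log2 scale, and *Clic6* by 1.19 in female mutant 2. In SP the departures of *Folr1* lay between -0.28 and 0.26 and those of *Clic6* between -0.41 and 0.29. *Folr1* held 3.16 to 5.90 CPM in SP controls and 1.74, 5.39 and 0.662 CPM in male SP mutants, and *Clic6* held 20.1 to 48.7 and 12.0, 40.1 and 4.32 CPM. *Folr1* overlaps *Anapc15* on the opposite strand and *Clic6* overlaps 2410124H12Rik on the same strand, so the *Clic6* count is uncertain to that extent.

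The inward rectifier *Kcnj13* returns potassium across the apical membrane. It held 2.68 to 3.69 CPM in DMH controls and 0.532, 1.37 and 1.02 CPM in female DMH mutants, without overlap, and 3.64, 3.90 and 3.37 CPM in male DMH mutants. In SP the controls ranged from 1.46 to 3.70 CPM, and the male mutants held 1.86, 2.97 and 0.348 CPM. SP of male mutant 1 was therefore inside the control range for *Kcnj13* while the other 9 members were below it, a departure of 1.16 on the log2 scale.

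*Slc4a5*, an electrogenic sodium bicarbonate cotransporter, and *Car12*, a membrane carbonic anhydrase, both handle bicarbonate. *Slc4a5* held 7.07 to 13.2 CPM in DMH controls and 1.31, 4.46 and 2.22 CPM in female DMH mutants. In DMH of female mutant 3 its difference from the mean of the other members was -1.91 on the log2 scale, the largest departure of any member in the 24 libraries. In SP it held 2.77 to 5.62 CPM in controls and 1.35, 4.79 and 0.244 CPM in male mutants. *Car12* held 6.11 to 12.1 CPM in DMH controls and 0.901, 2.53 and 5.07 CPM in female DMH mutants, and 5.35 to 10.6 CPM in SP controls against 4.995, 7.37 and 1.43 CPM in male SP mutants. Both genes were lowest in the same libraries as *Ttr*.

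The water channel *Aqp1* and *Prr32*, a gene whose role is not described here, departed upward in 1 library. *Aqp1* held 9.30 to 17.1 CPM in DMH controls, and 2.33, 5.05 and 23.6 CPM in the female DMH mutants. *Prr32* held 1.30 to 2.10 CPM in DMH controls and 0.205, 0.351 and 3.13 CPM in these mutants. Both were thus below every control in female mutants 1 and 2 and above every control in female mutant 3, where 16.5% of all genes lay above every control and the other 8 members did not. The library of female mutant 3 is the one with high skeletal muscle, cartilage and meninges transcripts, and the part of these tissues in the *Aqp1* and *Prr32* levels was not tested. In SP of the same embryo *Aqp1* held 6.29 CPM and *Prr32* 1.04 CPM, within the ranges of controls (5.68 to 11.2 and 0.886 to 2.26 CPM). In male SP mutants *Aqp1* held 3.01, 7.87 and 0.871 CPM and *Prr32* 0.317, 1.12 and 0.105 CPM.

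*Cldn2*, a pore-forming claudin of the tight junction, was the least abundant member per kilobase. It held 0.869 to 2.38 CPM in DMH controls and 0.246, 0.597 and 1.27 CPM in female DMH mutants. In SP it held 0.722 to 1.56 CPM in controls and 0.674, 0.599 and 0.174 CPM in male mutants, all below every SP control. The serotonin receptor *Htr2c*, which neurons also express, held 10.2 to 19.9 CPM in DMH controls and 3.68, 5.02 and 9.62 CPM in female DMH mutants, all below every control. In SP it held 7.71 to 13.1 CPM in controls and 5.07, 10.2 and 1.74 CPM in male mutants. *Htr2c* hosts small RNA genes on the same strand.

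**Figure D3:**
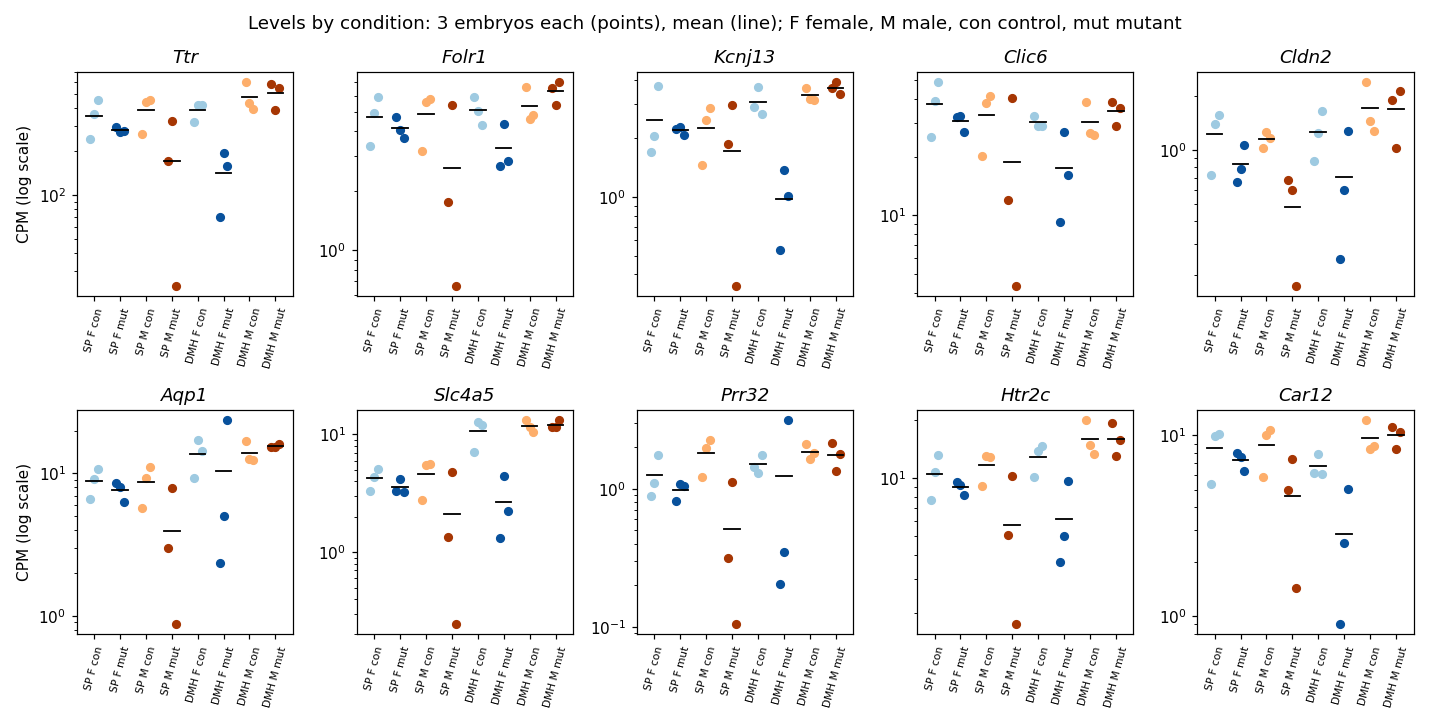
The 10 panels show CPM (log axis) of 1 gene each in the 8 conditions, with 1 point per embryo and a line at the mean. The female DMH mutants spread from 70.1 to 194 CPM for *Ttr* below all controls, and the male SP mutants from 23.6 to 323 CPM.

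For genotype in female DMH, a contrast that the choice of genes used, each mutant of the 2 fitted lay below each of the 3 controls for 9 of 10 members (all but *Folr1*), and 13.8% of all genes did so. The median log2 fold change of the members was -1.61, against -0.0015 over all genes, and all 10 were negative (-2.38 to -0.52). With female mutant 3 kept the median was -0.92. The fit called 0 of the 10 (the thresholds were a log2 fold change above 0.5 in size and an FDR below 0.2), with 0.00596% of all genes called, and nothing is read from this count. The study names *Aqp1* and *Slc4a5* among the genes lowered in female DMH at these thresholds. The reason for the difference was not tested. Without female mutant 2 the median was -2.49, where the 1 mutant left is assumed to vary like the controls, and without female control 2, whose label its transcripts go against, it was -1.54. The caudal *Hox* genes stood under 1 CPM in both mutants fitted and in female control 1, whose members lay at 20.1, 44.3 and 80.8% of the control median, and the part of the dissected extent of the hindbrain in the contrast was not tested. With the *Hox* level as a covariate the members' median was -1.31.

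In male DMH the members lay close to their controls. In edgeR's quasi-likelihood test none of the 10 members passed (0.0236% of genes called), none had an unadjusted p under 0.05 and neither DESeq2 nor the likelihood ratio test called any. The log2 fold changes ranged from -0.08 for *Prr32* to 0.22 for *Folr1* (SE 0.21 and 0.17), with a median of 0.04 (-0.05 to 0.25 with each replicate left out), and adjusted p ranged from 0.870 to 0.997. No member had every male mutant below every control, where 2.64% of genes did. Male DMH mutant 2, whose *Hox* sum was 11.5 CPM, stood at 97.6% of the control median.

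The difference between the sexes in DMH, the interaction of genotype and sex, rests on the female contrast and is likewise a description. The median interaction of the members was 1.68 on the log2 scale (2.58 without female mutant 2, and 0.98 with female mutant 3 kept), and the fit called 0 of them, with 0% of genes called. With both sexes fitted together and sex as a covariate, their median log2 fold change was -0.61, and -0.27 without female mutant 1, with 0 of 10 called and 0.0513% of genes called. Without the DMH libraries with less than 100 CPM of caudal *Hox* it was 0.15, and all 10 members were then higher in mutants. This removes both fitted female mutants, female control 1 and male mutant 2, and leaves male mutants 1 and 3 as the only mutants.

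In SP of the female embryos, genotype gave 10 negative log2 fold changes, from -0.77 for *Cldn2* (SE 0.33) to -0.11 for *Aqp1*, with a median of -0.18. None passed in edgeR's quasi-likelihood test, with an adjusted p of 1.00 for each, 0.0181% of genes called and 1 member at an unadjusted p under 0.05, and DESeq2 and the likelihood ratio test called none. No member had both fitted mutants below every female control, where 7.49% of genes did. The direction rested on female control 3, without which the median was 0.0059 with 5 of 10 negative, and the median was -0.37 without female control 1. With the replicate number as a block 4 of 10 were negative.

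Male SP holds the lowest SP libraries, which were among the low mutant libraries known when the genes were chosen, and it is described without a test. All 10 log2 fold changes were negative, from -1.73 for *Prr32* and -1.24 for *Cldn2* to -0.37 for *Kcnj13*, with a median of -1.05. The fit called 0 of the 10, with 0% of genes called. *Cldn2* and *Prr32* had every mutant below every control, 2 of 10 members, where 6.09% of genes did. The median was -0.55 without male mutant 3 and -1.997 without male mutant 2.

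With both sexes together, SP had a median of -0.63 over the members, with 0 of 10 called and 0% of genes called. It was -0.36 without male mutant 3 and -0.97 without male mutant 2. The interaction of genotype and region had a median of 0.30, with 0 of 10 called and 0.00546% of genes called, and its sign turned without male mutant 3 (-0.35) or male mutant 1 (-0.13), whereas it was 0.84 without female mutant 1 and 0.67 without female mutant 2. Both include the low libraries and are descriptions.

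DMH and SP of the same control embryos were then compared with the embryo as a block. The genes were chosen with earlier results of these data known, so the independence of this comparison from the choice is not shown. Of the 10 members, 2 were higher in DMH, *Slc4a5* and *Aqp1*, and none was lower, in edgeR's quasi-likelihood test with 36.4% of all genes called and 21.5% called higher. *Slc4a5* had a log2 fold change of 1.33 (SE 0.16, adjusted p = 2.73e-05) and was higher in DMH in 6 of 6 control embryos, by 0.88 to 2.23. *Aqp1* had a log2 fold change of 0.64 (SE 0.16, adjusted p = 0.00718) and was higher in 6 of 6, by 0.15 to 1.56. *Htr2c* was higher in 6 of 6 as well, with an adjusted p of 0.0291, but its log2 fold change of 0.36 (SE 0.13) was under the threshold. The remaining 7 ranged from -0.21 for *Clic6* (SE 0.26, adjusted p = 0.504) to 0.44 for *Kcnj13* (SE 0.20, adjusted p = 0.0720). Without male control 1, 1 member passed, and the members' median was 0.05 in place of 0.25.

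Set against *Ttr* in the same library, *Slc4a5* was higher in DMH than in SP in 12 of 12 embryos, mutants included, by a median of 1.01 on the log2 scale (0.25 to 1.35). *Aqp1* was so in 10 of 12 (median 0.41), while *Clic6* and *Car12* were lower relative to *Ttr* in DMH in 9 and 11 of 12 (medians -0.37 and -0.37). No test was made of these ratios. In mutants the same regional contrast, on 5 embryos, includes the low libraries by which the genes were chosen and is a description. *Slc4a5* had a log2 fold change of 1.44 and was the 1 member of 10 past the thresholds, with 36.6% of genes called and 20.8% called higher. No member was past them at an FDR under 0.05, with no filter on low counts, with female mutant 3 kept or without male mutant 1, 2 or 3, whereas 6 were without female mutant 1. The share of all genes called is not given for these alternative fits, so no excess or lack is read from the counts. The standard errors of the 10 members were larger than in controls, and the low libraries of the mutants lay in SP in males and in DMH in females.

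**Figure D4:**
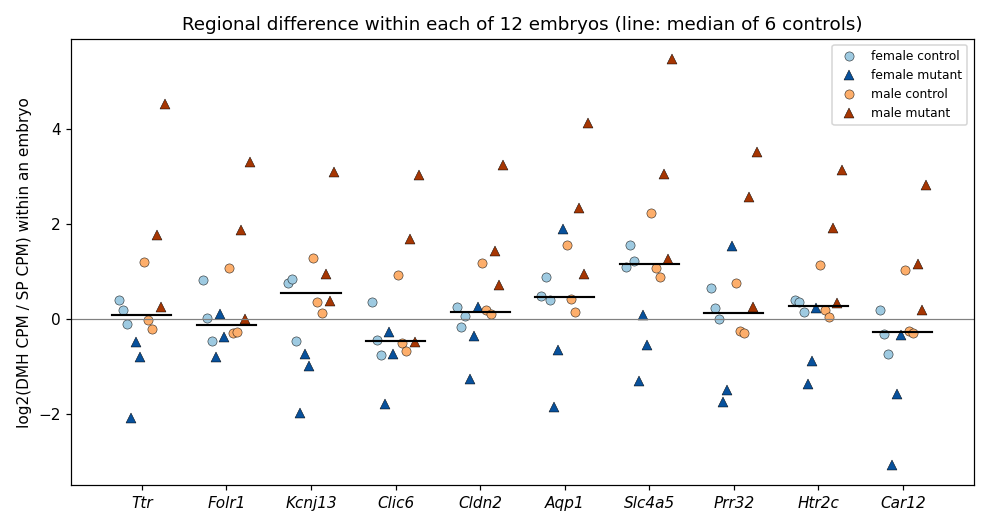
Each point is the log2 ratio of DMH to SP CPM of 1 gene in 1 of 12 embryos, circles for controls and triangles for mutants, and lines mark the median of the 6 controls. *Slc4a5* has the highest control median, 1.16, with all controls above 0, and male mutants reach 5.46 and female mutants -1.30 for the same gene.

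Other genes known from choroid plexus epithelium were counted from lists of 16 ion and solute transporters, 14 secreted proteins and 14 further epithelial genes. None of them passed for genotype in either region or sex in edgeR's quasi-likelihood test. In female DMH 6 of 16, 2 of 13 tested and 8 of 14 had an unadjusted p under 0.05, as did 1492 of all 16773 genes tested, and their median log2 fold changes were -0.12, -0.19 and -0.49, beside -1.61 for the members. In male SP the medians were -0.18, -0.31 and -0.77, beside -1.05 for the members, and 2 of 15 tested, 1 of 13 and 2 of 14 had an unadjusted p under 0.05, as did 605 of all 16562. In male DMH 2, 0 and 2 genes of the lists had one (490 of all 16962), and in female SP 2, 3 and 2 genes (428 of all 16615). The members were selected for low values in these mutants, so that the distance between their medians and those of the lists was fixed by the choice. Many of these genes are also expressed outside the choroid plexus. The members, *Ttr* included, summed to 33.5 to 550 CPM over SP libraries, and the 16 transporters to 444 to 573 CPM. The 14 secreted proteins summed to 255 to 388 CPM, lowest in male mutant 1 as the transporters were, and the 14 epithelial genes to 131 to 257 CPM, lowest in male mutant 3 as the members were.

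Between regions of the controls 36.4% of all genes were called, 21.5% higher in DMH and 14.9% lower. Of the lists, 10 of 16 transporters passed, 7 higher in DMH and 3 lower, 7 of 14 secreted proteins, all higher, and 9 of 14 epithelial genes, 8 higher and 1 lower. The transporters with the smallest p were *Atp1b1*, a sodium pump subunit (log2 fold change 1.73), *Slc4a10* (1.70), *Slc13a4* (1.65) and *Slc22a8* (1.27). The secreted proteins were led by *Cp*, ceruloplasmin (2.00), and *Enpp2*, autotaxin (1.01), and the epithelial genes by *Vat1l* (1.11) and *Sulf1* (1.17). *Otx2*, a transcription factor of the choroid plexus that the midbrain also expresses, was higher in DMH by 2.05 (adjusted p = 1.55e-05). *Cldn3* was lower in DMH (-1.69, adjusted p = 1.21e-05), whereas the member *Cldn2* did not pass (0.28, SE 0.19, adjusted p = 0.202). Of 10 genes of a multiciliation list, 6 were lower in DMH and none higher, and none passed for genotype in either region or sex. Over all libraries of a region, *Trp73* had medians of 26.2 CPM in SP and 3.03 CPM in DMH, and *Foxj1* 19.9 and 23.7 CPM. No number of ciliated cells is read from this list.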

How the data were processed

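RNA was sequenced from 24 libraries of 12 embryos. The authors aligned reads to mm10 with STAR (version 2.6.1d, after cutadapt 2.4, per the submitters' processing notes) and deposited, for each library, raw counts per gene in whole numbers without normalization, with 4 further lines that name no gene and were kept out of library sizes. The column of the strand read by dUTP libraries was used. Of 54446 identifiers 54409 matched a symbol of GENCODE vM21 (GRCm38), without version numbers, since 1180 differ in version, and 37 did not.

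CPM values were normalized by TMM over 24 libraries (prior of 2 counts on log scales for the group means and correlations). Each comparison was fitted by edgeR 4.0.16 (R 4.3.3) after filterByExpr and TMM, with the quasi-likelihood test and Benjamini-Hochberg adjustment over all genes tested, at the study's thresholds of FDR 0.2 and absolute log2 fold change 0.5. All 10 members passed the filter in every comparison. A standard error was taken as the size of the log2 fold change over the root of its F statistic. Female mutant 3 was left out, as in the study. Regional fits had the embryo as a block, and the others did not. The SP and DMH of 1 number come from 1 embryo by the study's design, and their deviations from the condition means had an r over 0.1 in 11 of 12 pairs. The replicates are separate embryos. Replicate libraries differed by a chi-square per gene of at least 9.62 over 24 pairs, so none was a copy.

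As alternatives, DESeq2 1.42.0, the likelihood ratio test, RLE size factors, unstranded counts, no filter on low counts, an FDR under 0.05, no fold change threshold, the replicate block added or removed, all samples, one fit over all groups, removal of DMH libraries under 100 CPM of caudal *Hox*, the *Hox* level as a covariate, sex from sex-linked transcripts, and each replicate left out were tried. The fits were tested on simulated data. The members and the gene lists were chosen with earlier results of these data known. Named are all members, *Tfap2b* and the 5 genes most like the members in each region. For each list, up to 4 genes with the smallest p are named where any passed. Singled out after their values were seen were *Otx2*, *Cldn3*, *Rlbp1*, *Dct*, *Best1*, *Trp73* and *Foxj1*. Plots come from matplotlib 3.10.9 under Python 3.11.15.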

Additional observations from a re-analysis of the deposited data

Results flagged for a closer look

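DMH of female mutant 3 enters none of the fitted comparisons, and it held 23.6 CPM of *Aqp1* and 3.13 CPM of *Prr32*, both above all 6 DMH controls (at most 17.1 and 2.10 CPM), while 7 of the 10 members lay below all of them. Of all genes with a mean of at least 1 CPM, 16.5% lay above and 11.7% below every DMH control in this library. The same library held 3223 CPM of 10 meninges genes, 629 CPM of 7 skeletal muscle genes and 1871 CPM of 5 cartilage genes. Groups of 3 libraries were not screened for single outlying values.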

How the results depend on the processing

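In female DMH, where the choice of genes used the contrast and the counts are no evidence about them, the fit called 0 members (1 gene in all). The count was 6 with no filter on low counts (535 genes in all), 1 with unstranded counts (4), 6 with the likelihood ratio test (104), 5 with DESeq2 (77) and 6 with the replicate number as a block (35). With each replicate left out it was 0 to 7 (7 of 1117 genes without female control 1, 3 of 9 without female mutant 2 and 2 of 7 without female control 3). The replicate numbers do not pair controls and mutants (r over 0.1 in 7 of 12 pairs), and the replicate block changed no other genotype call of the members. Their median there was -0.92 with all samples and -2.49 to -1.19 with each replicate left out. The interaction of genotype and sex gave 2 members with no filter (2 genes in all), 5 with the likelihood ratio test (16) and 5 with DESeq2 (13), and 0 to 3 with replicates left out (3 without female mutant 2). With replicates left out the medians ran from -1.997 to -0.55 in male SP, -0.37 to 0.0059 in female SP, -0.97 to -0.36 in SP of both sexes and -0.78 to -0.27 in DMH of both sexes. DMH of both sexes gave 0 to 2 with replicates left out (2 of 533 genes without male mutant 1). Its median turned to 0.15 without the libraries low in caudal *Hox*, a setting that leaves male mutants 1 and 3 as its only mutants. For female DMH alone that setting leaves no mutant and was not run. Between regions, controls gave 4 members with no fold change threshold and 1 to 3 with replicates left out, and mutants 0 at an FDR under 0.05, 0 with no filter, 0 with all samples, 2 with no replicate block and 0 to 6 with replicates left out (6 without female mutant 1, 0 without male mutant 1, 2 or 3). For these regional alternatives the share of all genes called is not given, and nothing is read from the counts. Co-variation was 0.90 in SP and 0.67 in DMH by Spearman, 0.84 and 0.64 without the 2 farthest libraries, and 0.61 in DMH with group means subtracted. The cause of these changes was not tested. Depth limits the values of *Prr32*, which reached the floor of 3 counts in 1 library.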
